A study of Homo sapiens with 6 samples.

Results

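The genes described here are the protein-coding genes of chromosome 19 whose symbol is ZNF followed by a number, with at most 1 letter after it. The deposited count table held 226 of them among 29889 genes, and they were picked by symbol, gene type and chromosome, a rule that uses no measured value. They were followed in A549, a human lung adenocarcinoma cell line, in 2 groups of 3 libraries. Cells of both groups were transfected with the vector pIRES-hrGFP-1a by Lipofectamine 2000 and harvested after 48 h. The vector carried the CELF6 coding sequence in the CELF6-OE group and was empty in the Control group, so both groups had been exposed to the reagent and to a plasmid. CELF6 is an RNA-binding protein that acts on splicing and on mRNA stability. Transfection was transient, and the RNA came from whole cultures, in which transfected and untransfected cells were not separated as far as the sources used here tell. Polyadenylated RNA was converted into strand-marked libraries and sequenced.

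ZNF genes of this kind encode proteins with arrays of C2H2 zinc fingers, small folds in which a pair of cysteines and a pair of histidines hold a zinc ion and which read DNA sequence. Many carry a KRAB box near the amino terminus, which binds the scaffold protein TRIM28. TRIM28 in turn brings a histone methyltransferase, heterochromatin proteins and deacetylases to the bound site, and a known role of this family is the silencing of transposable elements. The genes arose by repeated tandem duplication and lie in clusters, above all on chromosome 19.

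All 226 identifiers were found on chromosome 19 in GENCODE v44 (GRCh38), between positions 2819868 and 58481230. Their canonical transcripts coded for 2817 fingers that fitted a simple C2H2 pattern, from 1 to 31 per protein with a median of 12, and the highest number was in ZNF91. A KRAB box pattern was found in 162 of the 226 proteins. The pattern was loosened after a first, stricter form had been tried, which found 115, and its absence does not show that a protein lacks the domain. Adjacent fingers are often joined by a linker of the residues TGEKP. The proteins of 193 members held 1287 TGEKP stretches with a codon on each side, called linkers here. Whether each of them lay between adjacent fingers was not checked. The linkers were coded by 375 different stretches of 21 bases. The most frequent pair made up 219 linkers, or 17% of all. They are shown because they are short stretches that many members share. At 21 bases they are shorter than a read, and what they mean for assigning reads to genes was not tested. The lines below give the pair and then the first linker after a histidine in each of the 3 members called as changed, with the TGEKP codons in capitals and 1 flanking codon on each side in lower case. They were read 5′ to 3′ on the coding strand from the GENCODE v44 transcripts.
Most frequent: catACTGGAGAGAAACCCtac
Next most frequent: catACTGGAGAGAAACCTtac
ZNF226: cacACTGGGGAGAAGCCAttc
ZNF419: cacACTGGAGAAAAGCCTttt
ZNF766: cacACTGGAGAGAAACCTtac

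The first of these sequences occurred in 110 linkers of 29 members and the next in 109 linkers of 38 members. The ZNF226 linker lay in coding sequence at chr19:44176415-44176435 on the plus strand and was the only linker with that sequence. The ZNF419 linker, at chr19:57493398-57493418 on the plus strand, was coded by the same bases in 4 linkers of 3 members. The ZNF766 linker, at chr19:52290836-52290856 on the plus strand, shared its bases with a larger number, 21 linkers in 14 members. Over stretches of 75 bases, still shorter than the reads described in the methods, the transcripts were more distinct. Of the members, 99 shared no run of 75 bases with a transcript of another gene, and 127 shared some. The median share of a member's 75-base runs found elsewhere was 0.22%, and 37 members shared over 10%, up to 92.2%. Counts of those 37 are uncertain. A read from a stretch shared with a gene elsewhere may have been dropped or misplaced, since reads with a single genomic location were counted. Where the other gene overlaps the member on the same strand, as for ZNF709 at 92.2%, such a read has 1 location. It may then have been counted for either gene. Exons of 81 members overlapped those of another gene on the same strand, and those of 77 on the opposite strand. The strand setting of the counting is not given in the sources used here.

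The 6 libraries held 33748328 to 37920700 counts, with scaling factors by the trimmed mean of M-values (TMM) between 0.963 and 1.023. The transfected gene behaved as labelled, with CELF6 counts of 18646, 20789 and 11571 in CELF6-OE and 0 in each Control library. CELF6-OE replicate 3 thus held fewer CELF6 reads than the other two. The epithelial keratins KRT8 and KRT18 lay at 1643 FPKM or more in all 6 libraries, whereas EPCAM, another epithelial marker, lay at 0.82 to 1.77 FPKM. PTPRC of leukocytes, CDH5 of endothelium and DCN of fibroblasts were at most 0.01 FPKM. PECAM1 of endothelium lay at 0.01 to 0.06 FPKM and COL1A1 of fibroblasts at 0.22 to 0.42 FPKM. CD14 and CD68, which mark monocytes and macrophages, were detected at 3.02 to 4.53 and 2.57 to 9.25 FPKM. FPKM divides the fragment count by gene length and library depth, and it is used below wherever levels of different genes are compared.

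Most chromosome 19 ZNF genes were expressed at low levels in these cells. The median over the 226 members, on the scale of the mean FPKM of 6 libraries, was 0.32. It was 1.14 over 251 ZNF genes of other chromosomes, 3.04 over 1079 other protein-coding genes of chromosome 19 and 2.12 over all protein-coding genes. An FPKM of 1 or more was reached by 57 members (25.2%), against 51.4% of the ZNF genes elsewhere and 59.5% of all protein-coding genes. Only 8 members reached 10 FPKM, and 49 had a count of 0 in at least 1 library. The 3 members without a row in the FPKM table were taken as 0. By CPM, the count scaled to library depth but not to length, 131 members lay at 1 or more.

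The level differed between the genomic clusters. Members whose starts lay within 1000000 bases of the next formed 15 clusters. The cluster from ZNF101 to ZNF254 (chr19:19668796-24129968), had the lowest median, 0.02 FPKM over 29 genes, and 1 of them reached 1 FPKM. The cluster from ZNF653 to ZNF791 (chr19:11483427-12640098) had a median of 0.04 FPKM over 19 genes. The largest cluster lay near the long-arm end of the chromosome, from ZNF628 to ZNF446 (chr19:55476617-58481230), and its 59 genes had a median of 0.71 FPKM with 25 at 1 or more. The 24 genes from ZNF575 to ZNF296 (chr19:43525497-45076478) had a median of 0.553 FPKM, and this cluster held the member with the highest level, ZNF428.

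**Figure D1:**
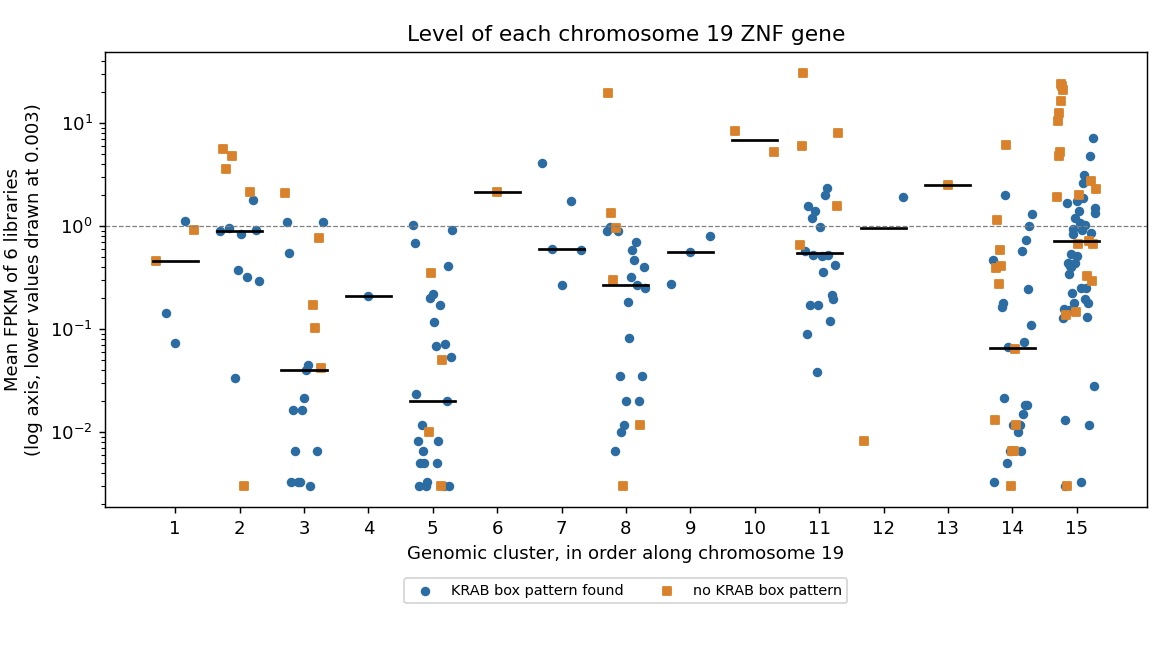
Mean FPKM over the 6 libraries (log axis) of each of the 226 chromosome 19 ZNF genes, arranged by genomic cluster 1 to 15 along the chromosome, with circles for proteins with a KRAB box pattern, squares for those without, a bar at each cluster's median and a dashed line at 1 FPKM. Clusters 3 and 5 hold the lowest medians, 0.04 and 0.02 FPKM, and of the 16 genes at 5 FPKM or more 15 are squares.

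The highest levels belonged to members without a KRAB box pattern. Of the 16 members at 5 FPKM or more, 15 lacked it, and the exception was ZNF584 at 7.09 FPKM. The median was 0.222 FPKM over the 162 members with the pattern and 0.737 FPKM over the 64 without. With 1 mismatch allowed, 180 members had the pattern, at a median of 0.248 FPKM. The 46 without it had a median of 2.04 FPKM, and 15 of them reached 5 FPKM. Members with few fingers were higher. The median was 2.1 FPKM over the 29 members with 1 to 7 fingers and 0.384, 0.145 and 0.261 FPKM over those with 8 to 12, 13 to 16 and 17 or more. These medians describe one cell line and were not tested.

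The question of the comparison was which chromosome 19 ZNF genes changed in level when CELF6 was over-expressed. Few did. Of the 226 members, 158 had enough counts to be tested, 67 of them higher and 91 lower in CELF6-OE. By the quasi-likelihood test of edgeR, with p-values adjusted after Benjamini and Hochberg over all 15847 genes tested, 3 members fell at an adjusted p under 0.05 (ZNF419, ZNF766 and ZNF226), where 11.5% of all genes fell. None rose, where 6.47% of all genes did. In either direction the share was 1.9% of the members against 18% of all genes. At an unadjusted p under 0.05 there were 6 higher and 14 lower members, 20 of 158, against 32.7% of all genes. DESeq2 and limma-voom also called no member as risen, and called 4 and 3 as fallen. Of all genes they called 16.8% and 18.1% in either direction. At the threshold in the study's methods, a p under 0.01 with a fold change of at least 1.5, no member rose, against 1.36% of all genes, and none fell, against 5.91% (7.27% in either direction). Leaving out 1 library at a time changed the number of called members by adjusted p. It was 0 of 161 without CELF6-OE replicate 1 and 1 of 159 without Control replicate 2, but 11 of 160 without Control replicate 1 and 9 of 161 without Control replicate 3. The shares of all genes called in the same fits, in that order, were 9.29%, 8.2%, 26.6% and 20.7%. In bulk RNA, less RNA per cell and fewer cells of a kind cannot be told apart. The methods call the 3 replicates biological but neither they nor the labels say that these were separate cultures, so the p-values measure the spread between these libraries.

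ZNF419, a KRAB zinc finger gene from which a minor histocompatibility antigen derives, showed the largest fall of the 3. Its counts were 129, 156 and 162 in CELF6-OE and 232, 221 and 234 in Control. In CPM scaled by TMM, these were 3.71, 4.31 and 4.74 against 6.26, 5.94 and 6.42. The ranges of the groups did not overlap, and CELF6-OE replicate 1 was the lowest. The mean level was 0.997 ± 0.127 FPKM in CELF6-OE and 1.42 ± 0.0656 FPKM in Control (SD, n = 3 each). The log2 fold change was -0.55 with an SE of 0.126, a level 1.46-fold lower, with an adjusted p of 0.0128 by edgeR's quasi-likelihood test. Over 17 alternatives the adjusted p ran from 0.00181 to 0.0677, and the call was lost in 1 of them, without CELF6-OE replicate 1. The lowest came with no filter on low counts, a fit in which a gene's own spread did not enter its p. ZNF419 spans chr19:57487711-57496098 on the plus strand and its protein had 11 fingers by the pattern. Of its 75-base runs 10.8% were shared, with an overlapping readthrough gene that had at most 2 counts in any library and with the neighbouring ZNF773.

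ZNF766, a KRAB zinc finger gene, was lower in each CELF6-OE library than in each Control library. The counts were 403, 433 and 443 in CELF6-OE and 686, 650 and 525 in Control. As CPM these were 11.58, 11.96 and 12.97 against 18.52, 17.48 and 14.40, so the groups did not overlap and Control replicate 3 lay nearest to the CELF6-OE libraries. Its mean FPKM was 1.68 ± 0.101 in CELF6-OE and 2.28 ± 0.351 in Control (SD, n = 3 each). The log2 fold change was -0.47 (SE 0.108, adjusted p 0.0135 by edgeR's quasi-likelihood test). The adjusted p ran from 0.000316 to 0.0743 over the alternatives and the call was lost without CELF6-OE replicate 1, CELF6-OE replicate 2 or Control replicate 2. Its lowest value, too, came with no filter on low counts. The gene spans chr19:52269587-52296046 on the plus strand, its protein had 8 fingers, and none of its 75-base runs occurred in another gene.

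ZNF226 encodes a KRAB protein with a long array, 17 fingers by the pattern. It had counts of 386, 418 and 387 in CELF6-OE and 557, 581 and 501 in Control. The corresponding CPM values, 11.09, 11.54 and 11.33 against 15.04, 15.63 and 13.74, did not overlap, and the CELF6-OE libraries lay close together. The mean FPKM was 1.75 ± 0.05 in CELF6-OE and 2.24 ± 0.185 in Control (SD, n = 3 each). The log2 fold change was -0.39 (SE 0.0902, adjusted p 0.0137 by edgeR's quasi-likelihood test), with adjusted p between 0.00407 and 0.0951 over the alternatives. Leaving out CELF6-OE replicate 1 or Control replicate 2 ended the call. ZNF226 spans chr19:44165073-44178381 on the plus strand and shared no 75-base run.

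**Figure D2:**
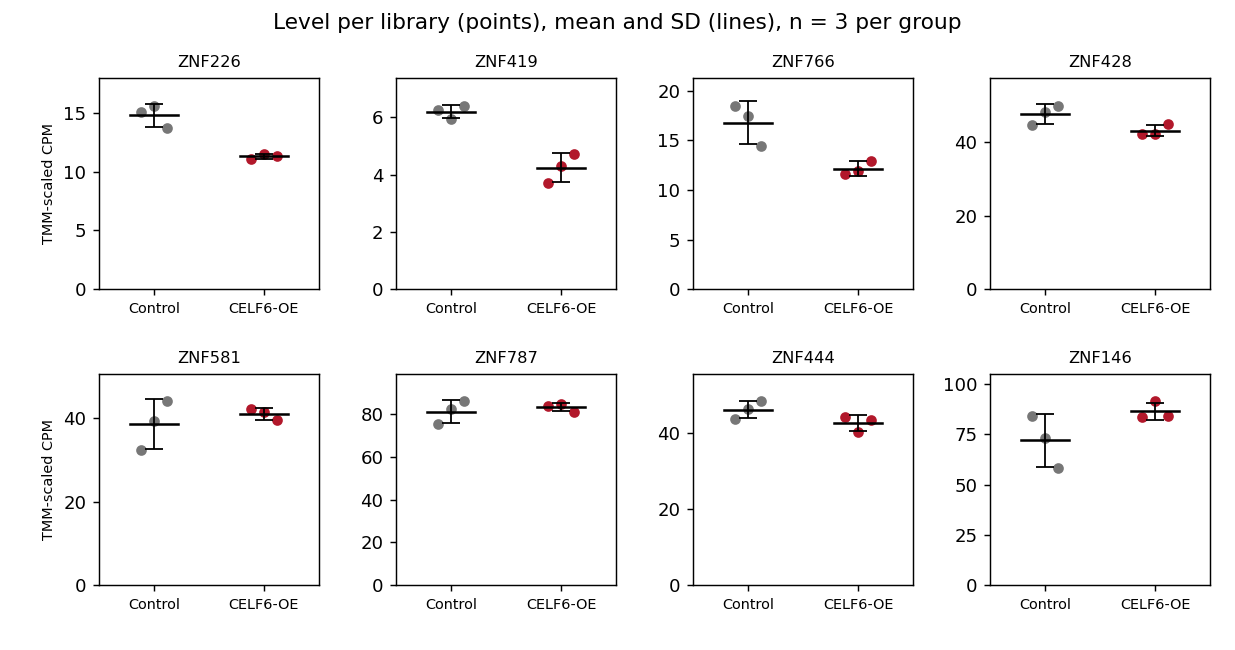
TMM-scaled CPM in each library (points) with mean and SD (lines, n = 3 per group) for the 3 members called as fallen and the 5 members with the highest FPKM, each panel with its own axis from 0. In the panels of ZNF226, ZNF419 and ZNF766 every CELF6-OE point lies below every Control point.

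The 3 called members lay in separate clusters and none of their nearest neighbours among the members passed the threshold. ZNF773, 12.2 kb beyond the start of ZNF419, had a log2 fold change of -0.31 (SE 0.133, adjusted p 0.134 by edgeR's quasi-likelihood test) and groups that did not overlap. On the other side ZNF772 and ZNF749 had values of 0.16 and 0.42, neither past the threshold. ZNF480, the tested member nearest to ZNF766 with 27.6 kb between the starts, was expressed more strongly, with a mean count of 1096. Its log2 fold change was 0.07 with an SE of 0.0678. Around ZNF226 the values of ZNF225, ZNF234 and ZNF227 were -0.42, 0.25 and -0.17, none past the threshold.

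None of the 5 members with the highest mean FPKM was called. ZNF428 had 29.6 ± 1.09 FPKM in CELF6-OE and 31.9 ± 0.903 in Control (SD, n = 3 each), with a log2 fold change of -0.14 (adjusted p 0.18 by edgeR's quasi-likelihood test). The 95% interval of that difference, -0.30 to 0.01, lay within a fold of 1.5. It was called without Control replicate 1, at -0.20. ZNF581 and ZNF787 differed by 0.09 and 0.04 on the log2 scale, with adjusted p of 0.572 and 0.742 by the same test of edgeR. Both values turned negative without Control replicate 1. ZNF444, which carries a SCAN domain used for dimerisation in place of a KRAB box, differed by -0.12 (adjusted p 0.285, edgeR). ZNF146, also known as OZF, consists of little else than fingers. Its CPM was 83.7, 91.5 and 84.2 in CELF6-OE and 84.2, 73.3 and 58.4 in Control, so Control replicate 1 lay within the CELF6-OE range and Control replicate 3 was lowest. The log2 fold change was 0.26 with a 95% interval of 0.02 to 0.51 and an adjusted p of 0.121 by edgeR's quasi-likelihood test. It was called without Control replicate 1, at 0.39, and when genes of low count were kept in the test, whereas without Control replicate 3 the value was 0.14. With genes of low count kept, a gene's own spread did not enter its p.

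Members with a described role elsewhere showed no called change. ZNF274, which binds the ends of other ZNF genes and recruits the methyltransferase SETDB1 to them, had counts of 508, 493 and 492 in CELF6-OE and 579, 558 and 619 in Control. The groups did not overlap, but the log2 fold change was small, -0.16 (adjusted p 0.23 by edgeR's quasi-likelihood test). The imprinted gene ZNF331 stood at 0.28 (adjusted p 0.154, edgeR). ZNF350, a partner of BRCA1, stood at -0.33, ZNF224, a partner of WT1, at -0.25, and ZNF160, a repressor of TLR4, at -0.28, with adjusted p of 0.167, 0.261 and 0.279 in edgeR's test. The ZNF160 value was -0.14 without Control replicate 1. ZNF671, often methylated in tumours, stood at -0.06 and changed sign without CELF6-OE replicate 1 or 3 or Control replicate 3.

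Several members known for silencing transposable elements or for loss in tumours were too low to be tested. ZNF91, which represses SVA elements, had counts of 8, 4 and 5 in CELF6-OE and 2, 5 and 3 in Control. ZNF93, which represses LINE-1 elements, had a single count, in CELF6-OE replicate 1. ZNF808, which binds MER11 elements, had counts of 0, 0 and 1 against 0, 5 and 0. The counts of ZNF382, ZNF677, ZNF132 and ZNF154, all described as methylated in tumours, lay between 0 and 7 in every library. At this depth no difference was detectable for any of these 7 genes. ZNF536 was not analysed here.

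The 68 untested members were spread unevenly over the chromosome. They made up 19 of the 29 genes of the ZNF101 to ZNF254 cluster, 12 of the 19 from ZNF653 to ZNF791 and 18 of the 36 from ZNF175 to ZNF331 (chr19:51571283-53580269), but 6 of 59 in the ZNF628 to ZNF446 cluster and 2 of 24 from ZNF575 to ZNF296. Their mean counts ran from 0.167 to 8.5 with a median of 1.58, and the highest single count was 15. In 20 of them the counts of each group summed to 3 or fewer, the limit set here for a count of 0. No statement on an effect of CELF6 can be made for these members.

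Over the 158 tested members the median log2 fold change was -0.04, and it was 0.01 over all genes tested. Single values ran from -0.61 (ZNF813, adjusted p 0.314 by edgeR's quasi-likelihood test) to 0.63 (ZNF708, adjusted p 0.234), both genes of low count. The middle of the distribution was narrow, with a 10th percentile of -0.36 and a 90th of 0.26. The 228 tested ZNF genes of other chromosomes had a median of 0.06 with 7 risen and 6 fallen (5.7%). Of 814 other protein-coding genes of chromosome 19, 38 rose and 145 fell (22.5%) with a median of -0.06. Their median was -0.12 without Control replicate 1 and 0.004 without Control replicate 3, and that of the members was -0.02 and -0.08. The groups did not overlap in 10 higher members (6.33%, against 17.9% of all genes) and in 22 lower members (13.9%, against 20%). The higher ones included ZNF507 at 0.33, ZNF30 at 0.35 and ZNF584 at 0.19, and the lower ones ZNF557 at -0.36 and ZNF296 at -0.37. These 5 genes were picked after their values were seen and their adjusted p by edgeR's test lay between 0.0505 and 0.133.

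Members were sequenced at lower depth than most genes tested. The median mean count was 107.3 for tested members and 452.5 for all genes, and the median SE of the log2 fold change was 0.158 and 0.111. Within bands of mean count, called members numbered 0 of 23 below 30 counts, 0 of 53 from 30 to 100, 1 of 49 from 100 to 300 (2.04%), 2 of 24 from 300 to 1000 (8.33%) and 0 of 9 above. The corresponding shares of all genes were 8.94%, 14.3%, 16.8%, 18.4% and 23.5%. For 87 of the 158 members (55.1%) the 95% interval lay within a fold of 1.5 in both directions, against 62.9% of all genes, and for 144 members (91.1%) it lay within a fold of 2, against 84.1%. Intervals of the members outside the 87 reached beyond the fold of 1.5, those of ZNF419 and ZNF766 among them.

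**Figure D3:**
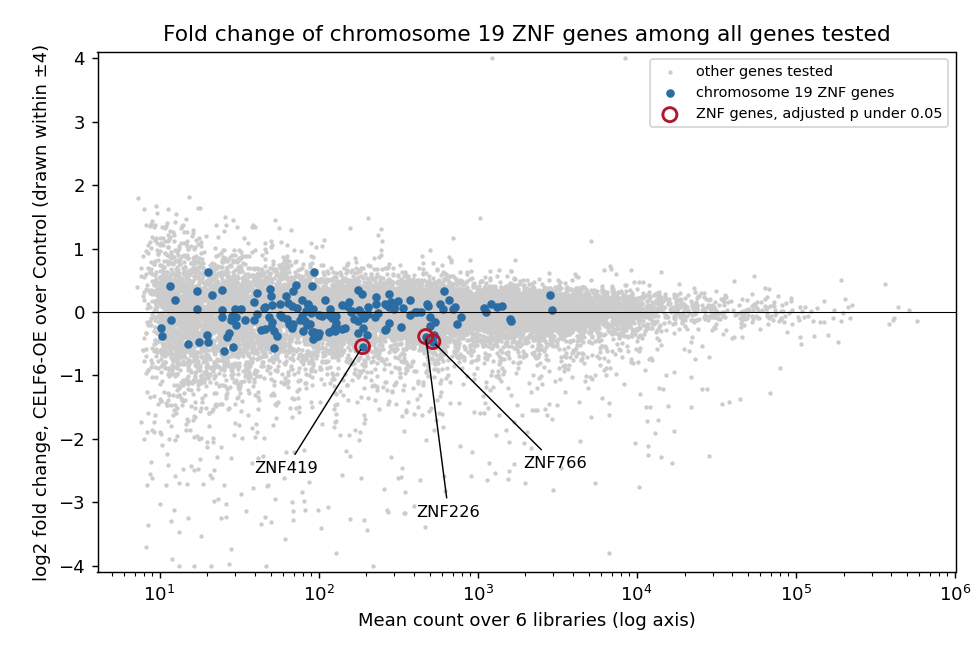
Log2 fold change of CELF6-OE over Control (values beyond the axis drawn at its ends) against the mean count over 6 libraries (log axis) for all 15847 genes tested in grey and the 158 tested chromosome 19 ZNF genes in blue, with red rings on the 3 members called as fallen. The ZNF genes lie between -0.61 and 0.63.

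Summed over the family, the levels of both groups lay close together. The TMM-scaled CPM summed over all 226 members were 1119, 1148 and 1132 in CELF6-OE and 1130, 1149 and 1125 in Control, so the groups overlapped. The summed FPKM were 336.3, 345.5 and 339.1 against 335.6, 337.2 and 335.1, with CELF6-OE replicate 1 within the Control range and the other two above it. No test was run on these sums. In such sums a strongly expressed member weighs more than a weakly expressed one.

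By protein type, the 108 tested members with a KRAB box pattern had 44 higher and 64 lower values with a median log2 fold change of -0.05. The 50 without it had 23 higher and 27 lower with a median of 0.00. All 3 called members had the pattern. By position, the 22 tested genes of the ZNF575 to ZNF296 cluster had 15 lower values and a median of -0.14, and the 7 tested from ZNF653 to ZNF791 had 5 lower and a median of -0.26. The 10 tested from ZNF101 to ZNF254 had 6 higher and a median of 0.15, with ZNF708 and ZNF714 highest at 0.63 each. ZNF714 had levels between 1.54 and 3.60 CPM, its groups overlapped, and its adjusted p was 0.0701 by edgeR's quasi-likelihood test. It was called as risen without Control replicate 1 and when genes of low count were kept in the test. None of these differences between clusters was tested.

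**Figure D4:**
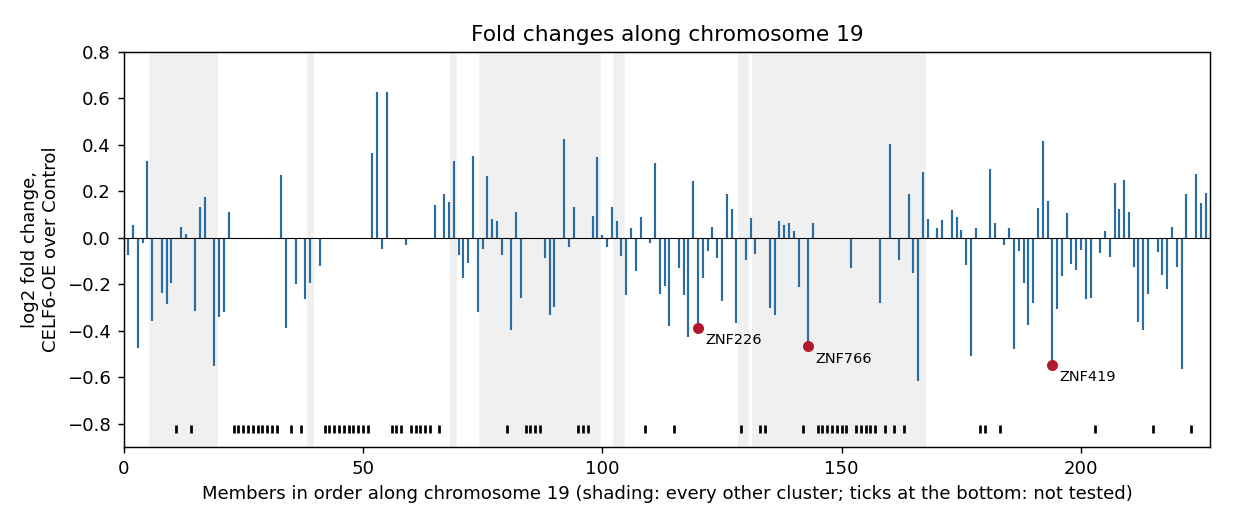
Log2 fold change of CELF6-OE over Control for each tested chromosome 19 ZNF gene in order of position along the chromosome, with grey shading for every other cluster, red points on ZNF226, ZNF766 and ZNF419, and ticks at the bottom for the 68 members not tested. Higher and lower values both occur within the large clusters, and the untested members are concentrated in clusters 3, 5 and 14.

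A list of 34 genes, drawn up here from cofactors of KRAB proteins and chromatin genes with wider roles, was followed as well. All 34 were tested. Of these, 27 were higher and 7 lower in CELF6-OE with a median log2 fold change of 0.11, against 0.01 over all genes. DESeq2 and limma-voom called 5 and 6 of the list as risen and none as fallen. By the same tools 976 and 1063 of all 15847 genes tested rose, and 1682 and 1813 fell. By edgeR's quasi-likelihood test 6 rose (17.6%, against 6.47% of all genes) and none fell, against 11.5%, with 2 lower at an unadjusted p under 0.05. In either direction the list's share of 17.6% was near the 18% of all genes. The median count of the list was 1755, and 23.5% of all genes above 1000 counts were called. CBX5, a heterochromatin protein that binds methylated histone H3, had 9.40 ± 0.189 FPKM in CELF6-OE and 6.75 ± 0.684 in Control (SD, n = 3 each). Its log2 fold change was 0.45 (SE 0.0689, adjusted p 0.00121, edgeR). UHRF1, which guides DNA methylation to newly made DNA, had 12.5 ± 1.24 against 8.63 ± 0.684 FPKM and a value of 0.51 (SE 0.0801, adjusted p 0.00144, edgeR). Both held in all 17 alternatives. The number of risen genes of the list was 2 with a replicate block and without CELF6-OE replicate 1, 2 or 3 or Control replicate 2, and 10 without Control replicate 1. Over all genes, 720 of 15847 rose with the block. Without those libraries, in that order, 378 of 16205, 281 of 16191, 624 of 16224, 287 of 16088 and 1906 of 16077 rose.

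The other 4 were less stable. The remodeller CHD3 stood at 0.24, the heterochromatin protein CBX1 at 0.26, the deacetylase HDAC2 at 0.27 and the DNA methyltransferase DNMT1 at 0.18, with adjusted p of 0.0182, 0.0283, 0.0461 and 0.0485 in edgeR's test. They passed in 12, 12, 10 and 8 of 17 alternatives. The HDAC2 value was 0.18 without Control replicate 3. TRIM28, the direct partner of the KRAB box, lay at 276 ± 8.33 FPKM in CELF6-OE and 236 ± 17.2 in Control (SD, n = 3 each). Its log2 fold change of 0.19 (SE 0.0764) had an adjusted p of 0.107 by edgeR's quasi-likelihood test and passed in 2 of 17 alternatives. Without Control replicate 1 it was 0.12. SETDB1, the methyltransferase recruited by TRIM28, stood at -0.04 (adjusted p 0.771, edgeR).

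**Figure D5:**
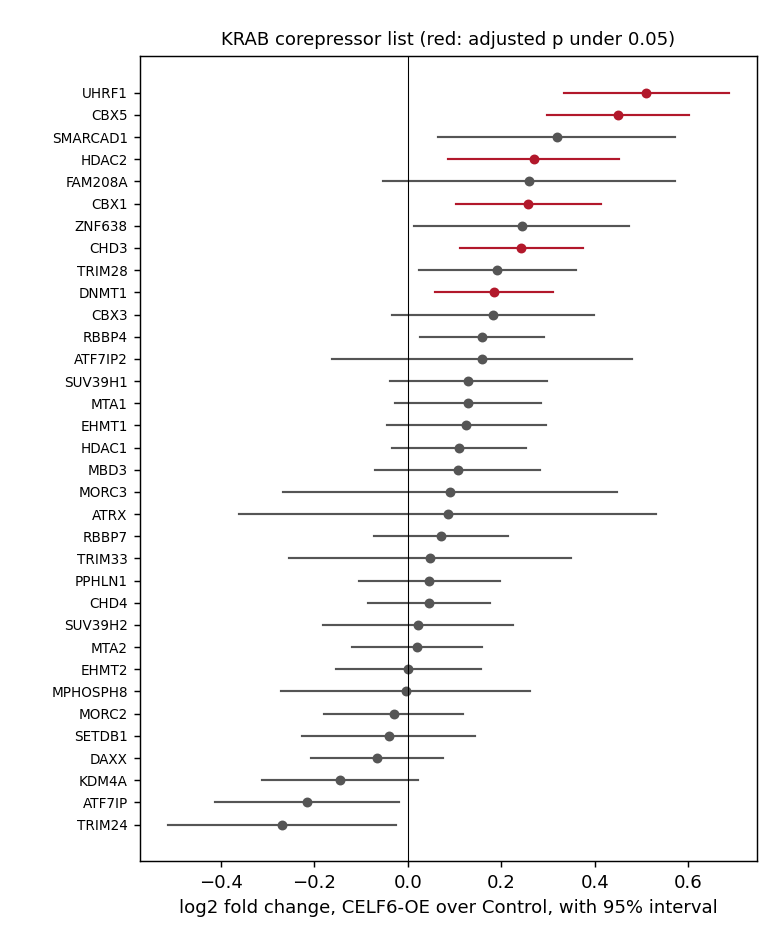
Log2 fold change of CELF6-OE over Control with its 95% interval for the 34 genes of the KRAB corepressor list, ordered by value, with the 6 genes at an adjusted p under 0.05 in red. UHRF1 and CBX5 lie highest at 0.51 and 0.45, and 27 of the 34 points lie above 0.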

How the data were processed

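The members are set by symbol, gene type and chromosome, but this family and the gene lists were chosen with earlier results of these data known. RNA-seq was done in 3 CELF6-OE and 3 Control libraries of A549 cells. According to the methods, the authors used FASTX-Toolkit for trimming and TopHat2 for alignment to GRCh38, and counted reads with a single location per gene. The submitters' notes also name edgeR. The annotation and the strand setting are not given in the sources used here. The authors deposited counts per gene (whole numbers, not normalized) and FPKM (rounded). The number of sample columns left unused was 0. Columns were matched to samples by their titles.

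Counts of all genes were fitted in edgeR 4.0.16 (R 4.3.3), with filterByExpr (minimum count 10), TMM scaling, glmQLFit and glmQLFTest with no block, and Benjamini-Hochberg adjustment over the 15847 genes kept. The prior count was 0.125, the prior degrees of freedom 7.15 and the biological coefficient of variation 8.62%. Intervals are at 95%. A count of 0 allows up to 3 counts, which covers counting error only. The script was tested on simulated data. Library totals were 33748328 to 37920700 counts. FPKM served for levels. Genomic positions, transcripts and translated proteins came from GENCODE v44, in place of the RefSeq proteins that had been planned. The fold threshold of 1.5 with a p under 0.01 is that of the study's methods, and its results text uses an adjusted p in place of p. A finger was C-x2-C-x12-H-x3-5-H. A KRAB box was F-x-D-[VL]-x-[VIL]-x-[FL] followed within 8 residues by [EQ][EQK][WL].

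Named were members with an adjusted p under 0.05, the 5 with the highest mean FPKM, genes with a known role fixed by name, and of the corepressor list those called and TRIM28, SETDB1 and CBX5. Alternatives were RLE, upper-quartile and library size scaling, no filter, robust fitting, a prior count of 2, CELF6 left out, DESeq2 1.42.0, limma-voom (limma 3.58.1), a replicate block and each library left out. edgeR's legacy setting, listed as an alternative, was the default already used, so the newer setting was added after the data were seen.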

Additional observations from a re-analysis of the deposited data

How the results depend on the processing

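In 10 of the alternatives that kept all libraries (other scalings, tests and fits) no member rose and 3 or 4 fell, and DESeq2 added ZNF296 and robust fitting ZNF557. With no filter on low counts 3 members rose at an adjusted p under 0.05, namely ZNF146, ZNF507 and ZNF714. At p under 0.01 with a fold of 1.5 it was 1. By adjusted p 3.1% of members were called in either direction, against 11.8% of all genes. In that fit the prior degrees of freedom were infinite, so a gene's own spread did not enter its p. Leaving out 1 library gave 0 to 3 risen and 0 to 8 fallen members by adjusted p, and 0 to 1 risen and 0 to 1 fallen by p and fold. The share of members called stayed below that of all genes in each, the highest being 6.88% against 26.6% without Control replicate 1 and 5.59% against 20.7% without Control replicate 3, the 2 libraries whose removal raised the count most. Without CELF6-OE replicate 1 no member was called, against 9.29% of all genes, and without Control replicate 2 there was 1, against 8.2%. The 3 members that rose without Control replicate 1 were ZNF146, ZNF507 and ZNF714. The median log2 fold change of members was -0.005 with library size only, where that of all genes was 0.049, and -0.082 to -0.021 without 1 library. The corepressor list had 2 to 10 risen and 0 to 2 fallen genes without 1 library. Over all genes 281 to 1906 rose and 1032 to 2370 fell in these fits. With gaps of 2 Mb there were 8 clusters, and by CPM 131 members lay at 1 or more. The log2 fold change changed sign for ZNF787 (-0.0235 to 0.0806) and ZNF581 (-0.0311 to 0.195, lowest without Control replicate 1 for both), for ZNF671 (-0.258 to 0.0451) without CELF6-OE replicate 1 or 3 or Control replicate 3, and for SETDB1 (-0.0926 to 0.0312) without Control replicate 3. The cause was not tested.

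Same-numbered libraries did not deviate together (correlations -0.011, -0.021 and -0.072), and the labels do not tie the numbers to a batch. With the replicate block the same 3 members were called, the corepressor list had 2 risen genes, and the calls over all genes went from 2845 to 2290. Depth limits the 68 untested members and those with wide intervals.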
